A study of Homo sapiens with 8 samples.

Results

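The genes described here are 10 genes of MHC class II antigen presentation and of its transcriptional control: CIITA, RFX5, RFXANK, RFXAP and NLRC5 among the regulators, and CD74, HLA-DMA, HLA-DMB, HLA-DOB and HLA-DRA among the presentation genes. They are 10 of 20136 protein coding genes on the main chromosomes. They were chosen by name, with earlier results of these data known, so their shares are not those of an unselected set. For each gene and library, the measurement was the FLI1 peak with the highest -log10 q among the peaks centred within 3 kb of any transcription start site (TSS) of the gene in the GENCODE annotation of GRCh37. A peak with a -log10 q of at least 3, which is an FDR of 0.001, was taken as passing.

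FLI1 is a transcription factor of the ETS family, and its occupancy was mapped by ChIP-Seq in the GCB lymphoma lines OCI-Ly1 and VAL. Both are established lines of germinal center B-cell type diffuse large B-cell lymphoma (GCB DLBCL). The cells carried no labelled treatment, and a rabbit polyclonal antibody against FLI1 was used. There were 2 FLI1 replicates and 2 input DNA samples per line, and the input samples were not analysed here. The list of OCI-Ly1 replicate 1 held 37 intervals, 33 of them longer than 1 Mb, so the lists used were those of OCI-Ly1 replicate 2 and of both VAL replicates, and values given for OCI-Ly1 are from that replicate.

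MHC class II molecules present peptides from endosomes to CD4+ T cells, and B cells are among the few cell types that make them constitutively. Their genes share a compact promoter module with an X box, bound by the RFX complex of RFX5, RFXANK and RFXAP, and a Y box with a CCAAT core, bound by the NF-Y complex. CIITA binds no DNA by itself; it docks on the assembled module and switches transcription on, and CIITA has several alternative promoters used in different cell types. ETS factors recognise a GGAA core, and FLI1 prefers CCGGAAG or CCGGAAA.

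The sequences that carry the findings are printed here, 5′ to 3′ from the GRCh37 genome, with the motif in capitals. The CIITA pair lies under the peak found in all 3 libraries, and shows a CCGGAAG and, downstream of it, a run of 5 adjoining GGAA units. The RFXANK pair lies under the peak at the promoter that RFXANK shares with BORCS8, BORCS8-MEF2B and MEF2B. The HLA-DMA sequence lies under the highest peak counted for HLA-DMA, with its summit 274 bp from a TSS of BRD2.
CIITA peak, chr16:11006681-11006710, plus strand: ccacctggagaCCGGAAGcccccgaggagg
CIITA peak, chr16:11006712-11006741, plus strand: tctgaGGAAGGAAGGAAGGAAGGAAaagac
RFXANK peak, chr19:19302949-19302978, plus strand: gggaaacggcaCCGGAAGcccggaggttgg
RFXANK peak, chr19:19303016-19303045, minus strand: gccctctgacaccGGAAcaggagccgtgcg
HLA-DMA peak, chr6:32936063-32936092, minus strand: gcctgaatccagcGGAAgcgcacgctgctg

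The canonical start sites of HLA-DRA, HLA-DMA and HLA-DMB are shown for contrast, because no passing peak was centred within 3 kb of them. Capitals mark ACNGATG, the letters searched for the 3′ end of an X box, in the promoter of the canonical transcript. The CD74 promoter, not printed, also holds ACNGATG, and there the match lies within the passing CD74 peak of VAL replicate 2.
HLA-DRA promoter, chr6:32407552-32407581, plus strand: ttcccctagcaACAGATGcgtcatctcaaa
HLA-DMA promoter, chr6:32920966-32920995, minus strand: gtctccccagtgACTGATGatgttaaaccc
HLA-DMB promoter, chr6:32908872-32908901, minus strand: gtttacctagtaACTGATGatgctaggctg

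Passing FLI1 peaks were found at 2 regulators in every library, CIITA and RFXANK, and at 2 presentation genes in VAL replicate 2 alone, CD74 and HLA-DMA. In OCI-Ly1 replicate 2, 2 of the 10 genes had one, beside 19.0% of all coding genes. In VAL replicate 1, it was also 2 of 10, beside 3.14% of all coding genes. In VAL replicate 2, it was 4 of 10, beside 20.9%. A passing peak in both lines was found for 2 of 10 genes (12.6% of all coding genes), in all 3 libraries for the same 2 (2.74%), and in any library for 4 (27.4%). The share in OCI-Ly1 was near the background, and no test was made on the shares of 10 genes. The calls depend on how peaks are given to genes. The CIITA peak counted only through a transcript with no defined coding sequence, and the best RFXANK and HLA-DMA peaks lay near TSS of other genes.

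**Figure D1:**
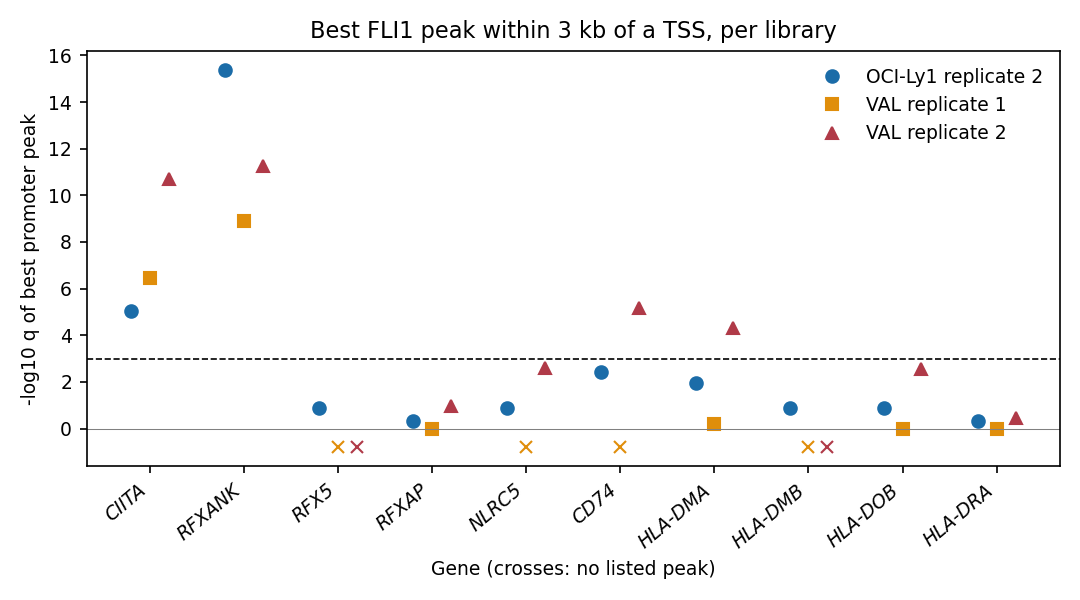
The -log10 q (vertical axis) of the best FLI1 peak within 3 kb of a TSS is plotted for each of the 10 genes and 3 libraries, with a dashed line at the passing value of 3 and crosses below 0 for genes with no listed peak. CIITA and RFXANK lie above the line in all 3 libraries, CD74 and HLA-DMA in VAL replicate 2 alone, and the other 6 genes in none.

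The lists differed in size and in the reads behind a passing peak. The OCI-Ly1 list held 1107379 peaks, and those of VAL replicates 1 and 2 held 237178 and 986629, of which 5354, 973 and 6474 passed. The reads at a summit were inferred from the fold enrichment and the -log10 p, and the weakest passing peak had 6, 8 and 6 reads in the same order, and the median passing peak 8, 17 and 8. The total of reads per library is not given in the lists, so intervals are exact 95% Poisson intervals of the inferred reads and cover counting error only. Over the 10 genes the median best -log10 q was 0.873, 0 and 2.57, and over all coding genes it was 1.22, 0.183 and 1.64, with a gene that had no listed peak counted as 0. The lists hold no expression, so neither B-cell markers nor the level of any of these genes could be checked.

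RFXANK, the ankyrin repeat subunit of the RFX complex (ENSG00000064490, chr19:19303038-19312678, plus strand), had the highest value of the 10 genes in every library. Its best peak reached a -log10 q of 15.4 in OCI-Ly1 replicate 2, with 18 reads at the summit (95% interval 10.7 to 28.4) over a local background of 0.717 reads and a fold enrichment of 11.1. In VAL replicate 1 the -log10 q was 8.89, with 23 reads (14.6 to 34.5) over a background of 2.85 and a fold of 6.24. In VAL replicate 2 it was 11.3, with 12 reads (6.20 to 21.0) over 0.359 and a fold of 9.57. OCI-Ly1 replicate 2 gave the highest -log10 q and fold. As the total of reads per library is not known, these values were not compared as amounts between libraries. Seen against all coding genes, 2.81% were at or above the RFXANK value in OCI-Ly1, and 0.854% and 4.44% in VAL replicates 1 and 2.

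The summits of the 3 RFXANK peaks lay within 20 bp of each other, at 52, 54 and 72 bp upstream of the canonical TSS. The site is a shared promoter, where other coding genes have an annotated TSS on the opposite strand. They are BORCS8, a subunit of the lysosome positioning complex BORC, and MEF2B, a MADS box transcription factor mutated in GCB DLBCL. The readthrough gene BORCS8-MEF2B also has a TSS there. Whether these are the canonical TSS of those genes was not checked. In OCI-Ly1 replicate 2 the summit lay 54 bp from the nearest BORCS8 TSS, 48 bp from that of BORCS8-MEF2B and 75 bp from that of MEF2B. These 3 genes had the pattern of values nearest to that of RFXANK, at a distance of 0 over the 3 libraries, because the peaks are the same ones. A peak at this place therefore cannot be told apart as belonging to RFXANK or to its neighbours. VAL replicate 2 listed another passing RFXANK peak (chr19:19303527-19303722), 570 bp downstream of the canonical TSS in intron 1, with 6 reads and a -log10 q of 3.003.

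CIITA, the master coactivator of MHC class II genes (ENSG00000179583, chr16:10960079-11036878, plus strand), had a passing peak in all 3 libraries, but far from the TSS of its main transcripts. In OCI-Ly1 replicate 2 the -log10 q was 5.06, with 7 reads at the summit (2.81 to 14.4) over a background of 0.288 and a fold of 6.21. In VAL replicate 1 it was 6.45, with 16 reads (9.15 to 26.0) over 1.67 and a fold of 6.36. In VAL replicate 2 it was 10.7, with 12 reads (6.20 to 21.0) over 0.400 and a fold of 9.29. Both VAL libraries were above OCI-Ly1 in -log10 q, but reads and -log10 q were not compared as amounts between libraries of unknown depth. The single OCI-Ly1 library leaves no test between the lines. The share of coding genes at or above CIITA was 11.9%, 1.30% and 4.77%.

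The 3 CIITA summits fell within 58 bp of each other in intron 13 of the canonical transcript, 35.6 kb downstream of its TSS. The peaks were chr16:11006362-11007064, chr16:11006572-11006865 and chr16:11006535-11007747, and all 3 overlap. They counted for CIITA because they were centred 2790, 2784 and 2362 bp upstream of the TSS of CIITA-208, a transcript with no defined coding sequence. The nearest TSS of a coding CIITA transcript was 9311, 9305 and 8883 bp away. With a window of 1 kb, or with only the TSS of coding transcripts, no CIITA peak passed in any library.

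At the canonical CIITA TSS itself, the highest listed peak within 3 kb had a -log10 q of 0.454 in OCI-Ly1, with 3 reads, and of 1.38 in VAL replicate 2, with 4 reads. VAL replicate 1 listed none there. CIITA therefore had a peak inside the gene in both lines and none that passed at its canonical start at this depth. VAL replicate 2 also had a passing peak beyond the 3′ end of CIITA (chr16:11038299-11039505), with 6 reads and a -log10 q of 3.66. The coding genes with the pattern over the 3 libraries nearest to that of CIITA were UBA6, REXO1L1 and ZNF684, at Euclidean distances of 1.92, 2.15 and 2.18 in -log10 q.

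**Figure D2:**
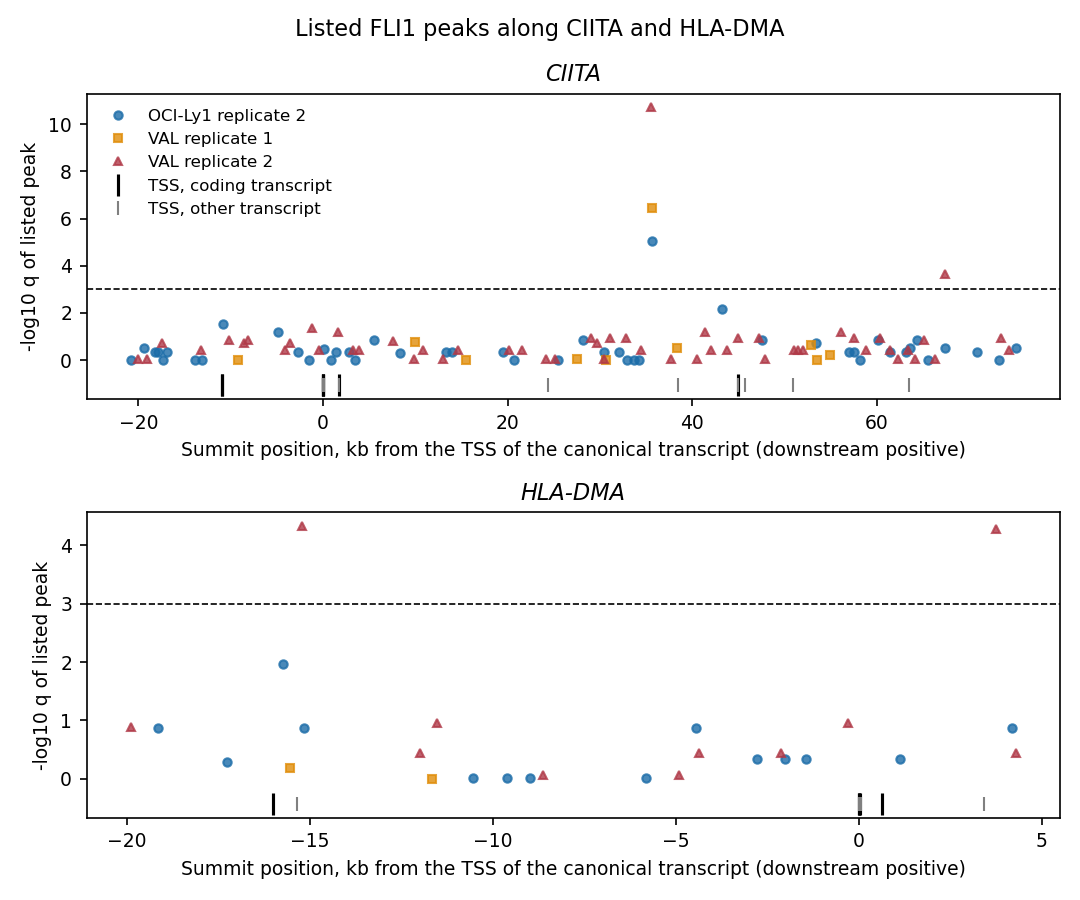
Each point is a listed FLI1 peak in or near CIITA (top) or HLA-DMA (bottom), with its summit's distance in kb from the canonical TSS (horizontal axis, downstream positive) and its -log10 q (vertical axis), and vertical ticks mark TSS of coding transcripts in black and of other transcripts in grey. The passing CIITA peaks of the 3 libraries stand together at 35.6 kb, and the 2 passing HLA-DMA peaks of VAL replicate 2 stand 15.2 kb upstream and 3.74 kb downstream of the canonical TSS, which is at 0.

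NLRC5, the CIITA-like coactivator that acts mainly on MHC class I genes (chr16:57023397-57117443, plus strand), had no passing peak. It has 28 TSS, the most of the 10 genes, between positions 57023397 and 57114911. Its best -log10 q was 0.873 in OCI-Ly1 replicate 2, with 3 reads, and 2.58 in VAL replicate 2, with 5 reads, and VAL replicate 1 listed no peak. The VAL replicate 2 peak lay 57.4 kb downstream of the canonical TSS.

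The other subunits of the RFX complex had no passing peak. RFX5, its DNA-binding subunit (chr1:151313116-151319802, minus strand), had a -log10 q of 0.873 in OCI-Ly1 replicate 2, with 3 reads. It had no listed peak within 3 kb of its 20 TSS in either VAL library. RFXAP, the RFX associated protein (chr13:37393359-37403241, plus strand), had values of 0.344, 0 and 0.952 with 2, 4 and 3 reads. Of the 3 genes of the complex, RFXANK alone passed, in all 3 libraries, by the peak it shares with BORCS8, MEF2B and BORCS8-MEF2B. With each peak given only to the gene of its closest TSS, the best RFXANK -log10 q was 1.89, 0.543 and 3.003.

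CD74, the invariant chain that fills the class II groove until the endosome (ENSG00000019582, chr5:149781200-149792532, minus strand), passed in VAL replicate 2 alone. Its peak there (chr5:149791657-149792697) had a -log10 q of 5.19, with 8 reads (3.45 to 15.8) over a background of 0.414 and a fold of 6.36. The summit lay in a coding exon, 253 bp downstream of the canonical TSS. In OCI-Ly1 replicate 2 a peak over the same place (chr5:149791646-149792783) had its summit 1 bp from the canonical TSS, with 6 reads (2.20 to 13.1), a fold of 4.63 and a -log10 q of 2.43. VAL replicate 1 listed no CD74 peak within 3 kb of a TSS.

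CD74 was thus the only gene beside RFXANK with a passing peak at its canonical start, and its OCI-Ly1 peak was below the threshold. The reads of OCI-Ly1 replicate 2 and VAL replicate 2 were not compared as amounts. A further VAL replicate 2 peak (chr5:149780071-149782793) had its summit just past the 3′ end of CD74, with 7 reads and a -log10 q of 4.99.

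HLA-DMA, the alpha chain of the HLA-DM dimer that releases the CD74 fragment and edits the bound peptide (ENSG00000204257, chr6:32916390-32936871, minus strand), had a -log10 q of 1.96 in OCI-Ly1 replicate 2, with 5 reads, and of 0.183 in VAL replicate 1, with 8 reads over a background of 2.68. In VAL replicate 2 the value was 4.33, with 8 reads (3.45 to 15.8) and a fold of 5.85. VAL replicate 2 was thus the only library to pass, and its replicate of the same line was near 0.

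The passing HLA-DMA peak (chr6:32935775-32936899) had its summit 15.2 kb upstream of the canonical TSS, in a noncoding exon of the long transcript HLA-DMA-206. It also lay 274 bp from a TSS of BRD2, the BET family chromatin reader encoded on the other strand, so it cannot be told apart as a peak of HLA-DMA or of BRD2. A second passing peak in the same library (chr6:32916992-32917224) lay 3736 bp downstream of the canonical TSS, in a coding exon, with 7 reads and a -log10 q of 4.29, and counted through HLA-DMA-209, a retained intron transcript. At the canonical HLA-DMA TSS the highest values were 0.344 in OCI-Ly1 and 0.952 in VAL replicate 2.

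HLA-DMB, the beta chain of HLA-DM (chr6:32902406-32908805, minus strand), had a -log10 q of 0.873 in OCI-Ly1 replicate 2, with 3 reads, and no listed peak within 3 kb in VAL. A VAL replicate 2 peak (chr6:32912212-32912443) lay 3532 bp upstream of its canonical TSS, outside the window, with 6 reads and a -log10 q of 3.003. HLA-DOB, the beta chain of HLA-DO, which restrains HLA-DM in B cells (chr6:32780540-32788243, minus strand), had values of 0.873, 0 and 2.56 with 3, 4 and 5 reads. The highest of these was 1 read short of the fewest reads at any passing peak of that library.

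HLA-DRA, the nearly monomorphic alpha chain of HLA-DR and a classical CIITA target (chr6:32407655-32412823, plus strand), had the lowest listed values of the presentation genes, 0.344, 0 and 0.435, with 2 reads at the summit in each library, level with HLA-DOB in VAL replicate 1. The share of coding genes at or above it was 94.6% in OCI-Ly1 and 95.4% in VAL replicate 2. No peak at HLA-DRA passed in any library, and whether weaker binding occurs there was not tested.

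**Figure D3:**
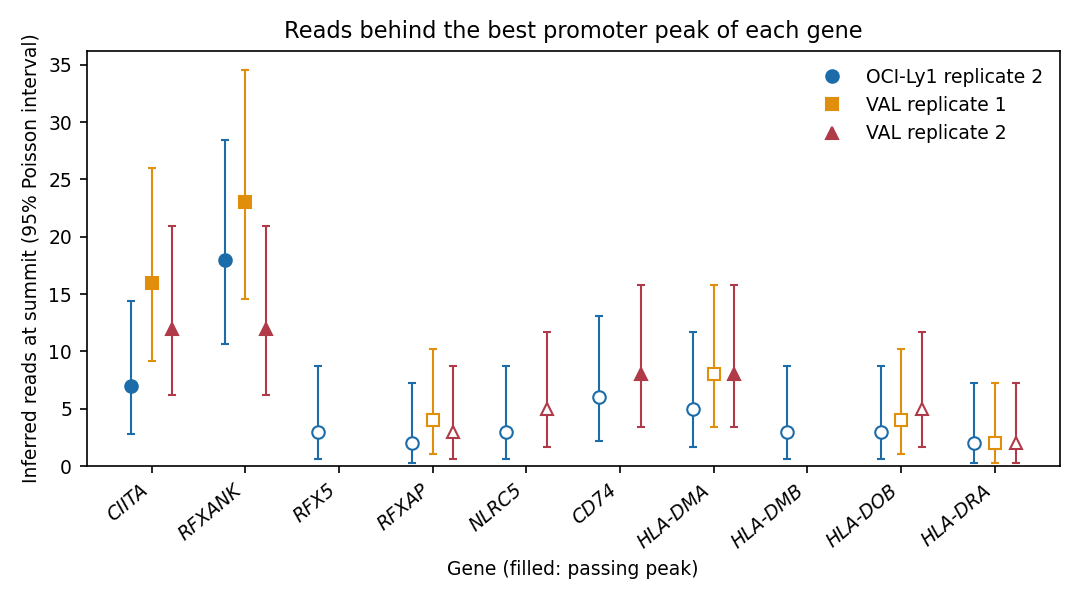
Reads at the summit of the best peak (vertical axis, inferred from the lists) are plotted for each gene and library with exact 95% Poisson intervals, filled where the peak passes and open where it does not. RFXANK had 12 to 23 reads and CIITA 7 to 16. The best passing peaks of CD74 and HLA-DMA, in VAL replicate 2, had 8 reads each. The best peaks that did not pass had 2 to 8 reads, so the ranges meet.

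The searched TSS made a difference to the count. Genes with many TSS can have a wider search, and 4 of the 10 genes (CIITA, RFX5, RFXANK and NLRC5) have 10 or more. The number of TSS is not the width searched. The 20 TSS of RFX5 lie between positions 151317143 and 151319802 of chromosome 1. The 8 TSS of HLA-DMA, which is not among these 4, lie further apart, between 32917448 and 32936871 of chromosome 6. Among all coding genes with 10 or more TSS, 28.9% had a passing peak in OCI-Ly1, 4.68% and 31.4% in VAL replicates 1 and 2, and 41.0% in any library, where 2 of these 4 genes had one. With the canonical TSS alone, an alternative chosen after seeing the data, RFXANK was the 1 gene left in OCI-Ly1 (16.7% of coding genes with a canonical TSS) and in VAL replicate 1 (2.64%). RFXANK and CD74 were the 2 left in VAL replicate 2 (18.0%) and in any library (23.8%).

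**Figure D4:**
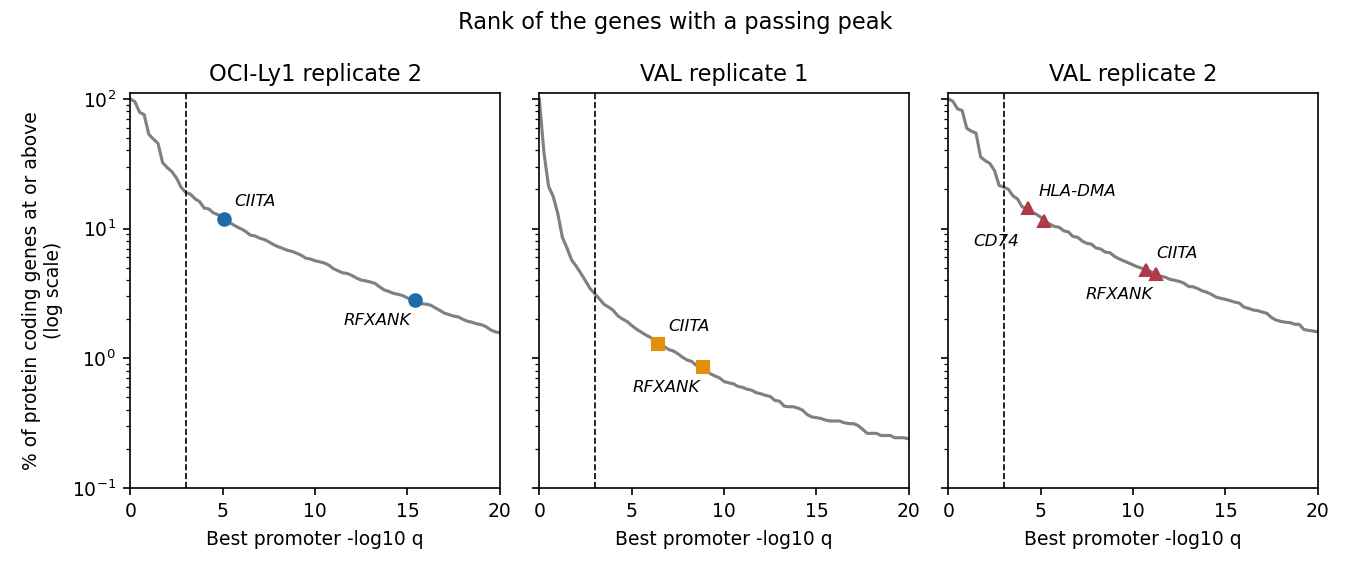
The grey curve gives, for each library, the percentage of coding genes (vertical log axis) whose best promoter -log10 q is at or above the value on the horizontal axis, with the genes that passed marked and a dashed line at 3. RFXANK stood at 2.81%, 0.854% and 4.44% of coding genes, and CIITA at 11.9%, 1.30% and 4.77%.

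Motifs were searched on both strands around each summit, and a match is a description of the letters only. At CIITA, CCGGAAG lay 10 bp from the summit in OCI-Ly1 replicate 2 and 11 bp from it in VAL replicate 1. In VAL replicate 2 the summit lay further upstream, with a GGAA at 9 bp and the core of the same CCGGAAG at 48 bp, so that the 7 letters were not whole within 50 bp. The 5 GGAA units printed above follow the CCGGAAG. A run of 5 or more adjoining GGAA units, a pattern searched after the sequence was seen, was found within 50 bp of the summit at 1 of 3272 passing promoter peaks of OCI-Ly1 replicate 2, which is the CIITA peak, and at 0 of 498 and 0 of 3687 in VAL replicates 1 and 2, whose CIITA summits lie further upstream.

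At RFXANK, CCGGAAG was within 50 bp of the summit in VAL replicate 2 alone, at 32 bp, and within 100 bp in all 3 libraries. The GGAA printed above was within 50 bp of the RFXANK summit in each library, at 15, 17 and 35 bp. The best passing peak of HLA-DMA had GGAA at 20 bp but neither CCGGAAG nor CCGGAAA within 100 bp. The other passing HLA-DMA peak, with nearly the same -log10 q, had GGAA at 30 bp and 2 matches of CCGGAAG or CCGGAAA within 100 bp, none of them within 50 bp. The passing peak of CD74 had no GGAA within 50 bp. For comparison, CCGGAAG or CCGGAAA was within 50 bp of 48.6%, 61.6% and 41.7% of all passing promoter peak summits in the 3 libraries, and GGAA, which both contain, of 88.6%, 92.6% and 86.3%.

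In the canonical promoters, from 250 bases before to 50 after the TSS, RFXANK was the 1 gene of the 10 with CCGGAAG or CCGGAAA, beside 18.2% of 19856 coding promoters. ACNGATG was found in CD74, HLA-DMA, HLA-DMB and HLA-DRA, beside 5.39% of all promoters. CTGATTGG, a Y box form that contains the reverse complement of CCAAT, was found in HLA-DMA, HLA-DRA and RFX5, beside 5.24%. CCAAT itself was found in CD74, HLA-DMA, HLA-DMB, HLA-DOB, HLA-DRA and RFX5, and in none of CIITA, NLRC5, RFXANK and RFXAP, beside 36.0% of all promoters. Each set of letters was counted by itself, and their spacing was not.

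The other chains of class II molecules had no passing peak. HLA-DRB1, HLA-DRB5, HLA-DQA1, HLA-DQB1, HLA-DQA2, HLA-DQB2, HLA-DPA1, HLA-DPB1 and HLA-DOA gave 0 of 9 in each library. This stands beside 19.0%, 3.14% and 20.9% of all coding genes, and with 9 genes it was not tested. HLA-DPA1 and HLA-DPB1 had the same best peak in each library, so they do not count separately. From the start of HLA-DRA to the end of HLA-DPB1 (chr6:32407655-33057473), listed peaks numbered 38.0, 6.62 and 32.9 per 100 kb in the 3 libraries, beside 37.7, 7.37 and 32.1 over chromosome 6. Passing peaks there numbered 0, 0 and 3, which is 0, 0 and 4.62 per Mb beside 1.39, 0.205 and 1.61 over chromosome 6, and the 3 lay at HLA-DMA or between it and HLA-DMB. At these rates over chromosome 6, a stretch of this length would hold few passing peaks or none, and no test was made. In the most polymorphic stretch, from HLA-DRB5 to HLA-DQB1 (chr6:32485130-32636160), listed peaks numbered 31.8, 5.30 and 21.8 per 100 kb. Reads that differ from the reference or map to more than 1 place can be lost there, and the part of this in the low values was not tested.

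Of 8 genes for the partners and coactivators of CIITA, 4, 2 and 4 passed in the 3 libraries and 6 in any. Over all coding genes the shares were 19.0%, 3.14% and 20.9%, and 27.4% in any library. NFYC, CREBBP, CREB1 and EP300 have 23, 20, 17 and 14 TSS. Of all coding genes with 10 or more TSS, 41.0% passed in any library, and no test was made. ATF1, a CREB family factor that binds the X2 box, passed in all 3, with -log10 q values of 9.15, 14.6 and 19.3 and 11, 33 and 20 reads. EP300, a histone acetyltransferase, reached 17.0 in OCI-Ly1, 1.46 in VAL replicate 1 and 17.6 in VAL replicate 2. NFYA, a subunit of NF-Y, reached 5.97 in OCI-Ly1, 0.0404 in VAL replicate 1 and 5.19 in VAL replicate 2. When each peak was given only to the gene of its closest TSS, EP300 no longer passed in either library and NFYA no longer passed in VAL replicate 2, since those peaks lay nearer a TSS of another gene. A further 3 genes passed in 1 library each: NFYC, another NF-Y subunit, at 5.72 in VAL replicate 2, the acetyltransferase KAT2B at 4.89 in OCI-Ly1 replicate 2, and CREBBP at 3.004 in VAL replicate 1 near an internal TSS. NFYB and CREB1 passed in none.

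Among factors that act on CIITA, SPI1, IRF1, IRF4 and PRDM1 passed in no library, with values up to 2.43, at IRF1 in OCI-Ly1 replicate 2. Of 10 genes of endosomal processing and turnover, 3 passed in OCI-Ly1, and 0 and 1 in VAL replicates 1 and 2. SPPL2A, the protease that clears the CD74 stub, reached 5.45 in OCI-Ly1 and 4.91 in VAL replicate 2. IFI30, a lysosomal thiol reductase, reached 3.38 in OCI-Ly1 replicate 2 alone, and MARCHF8, a ubiquitin ligase of surface proteins, reached 4.97 in the same library, 74045 bp from its canonical TSS. Over the 31 genes of these lists reported here, 7, 2 and 5 passed, and 9 in any library. The lists were chosen by name with earlier results of these data known, and no test was made on them. Their shares stand beside 19.0%, 3.14% and 20.9% of all coding genes per library, and 27.4% in any library.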

How the data were processed

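FLI1 ChIP-Seq was done by the authors with at least 5 parallel immunoprecipitations pooled per sample. Reads were mapped by the authors to GRCh37 with bowtie2, and SAMtools was used to keep reads that map uniquely with a quality of at least 10 and to drop duplicates. The submitters' processing notes also list BWA and CASAVA 1.4 with hg19. The methods name HOMER for peaks, while the deposited lists have the columns of a MACS2 list, 1 per library. The caller, control and settings of these lists are not given in the sources used here. The deposited fold is the ratio of pileup to local background at the summit, the deposited -log10 p and -log10 q belong to the same summit, and the deposited score, a whole number made from 10 times that -log10 p, was not used.

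Peaks were assigned to genes with GENCODE release 44 lifted to GRCh37 by their centre, with pandas 2.3.3 and numpy 2.4.6. The reads k and background b at a summit were solved from a fold of (k + 1) / (b + 1) and a Poisson p with scipy 1.17.1. A whole k gave the deposited -log10 p to within 0.001 for 99.9% of passing peaks in OCI-Ly1 replicate 2, and the solution was tested on simulated data. The canonical transcript is the one Ensembl marks as such. All 10 genes, the list genes with a passing peak, the coding genes sharing a peak and the 3 coding genes nearest in pattern were named by rule. A gene of the pathway lists is not reported here, and the counts leave it out. The genes and lists were chosen with earlier results of these data known.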

Additional observations from a re-analysis of the deposited data

How the results depend on the processing

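In OCI-Ly1 replicate 2, VAL replicate 1, both lines and all libraries, the count of 2 genes fell to 1 with a peak centre within 1 kb, with the TSS of coding transcripts only or of the canonical transcript only (RFXANK each time), and with each peak given only to the gene of its closest TSS (CIITA). The canonical TSS, chosen after seeing the data, also gave 2 genes in VAL replicate 2 and in any library, and 1 other pathway gene in VAL replicate 1. With all listed peaks the counts were 10, 6 and 8 per library, 8 in both lines, 10 in any and 6 in all libraries, and 30, 27 and 30 for the other pathway genes. A -log10 q of at least 5 left 4 of these in OCI-Ly1 and 1 in VAL replicate 1, while the closest TSS left 3 in VAL replicate 2, where EP300 and NFYA were lost. Without VAL replicate 1 or 2, any library gave 2 to 4 genes, since CD74 and HLA-DMA rest on VAL replicate 2, and both lines and all remaining libraries stayed at 2. CCGGAAG or CCGGAAA at the best passing summit was found for 1 gene per library within 50 bp, and for 2 within 100 bp, and GGAA for 2, 2 and 3. Which gene each moved peak belongs to was not tested. The fold of at least 4, the summit in place of the centre and the overlap rules changed no count by over 1.5 times. No paired analysis was possible because the counts come from no test and 1 OCI-Ly1 library was usable. The fewest reads at a passing peak were 6 to 8 per library, so weaker binding would not be seen. Reads alone did not decide, as HLA-DMA in VAL replicate 1 had 8 reads and a -log10 q of 0.183.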
